A study of Mus musculus with 15 samples.

Results

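The glycolysis and lactate genes described here are 32 of the 23132 genes kept from the count table, chosen by name from glucose uptake to the entry of pyruvate into mitochondria. They are 2 glucose transporters, 2 hexokinases, 4 genes of the hexose phosphate steps, 3 PFKFB regulators, 3 genes of the triose steps, 6 enzymes of the later energy-yielding steps, both lactate dehydrogenase subunits, 3 lactate transporters, and 7 genes of pyruvate entry and oxidation. RNA was sequenced from foetal C57BL/6 mouse cerebral cortex at E15.5 (E, embryonic day), taken as tissue, in 3 Phf6+/Y controls and 5 Phf6-/Y males with germline loss of Phf6. It was also sequenced from cortical neurons of E16.5 foetuses, kept in culture overnight in medium holding glucose and insulin, in 3 Phf6+/Y;Nes-creTg/+ controls and 4 Phf6lox/Y;Nes-creTg/+ samples. Phf6 encodes a chromatin-associated protein, and the deleted allele lacks exons 4 and 5. The Nes-cre transgene, which drives Cre recombinase in the neural lineage, was carried by both neuron groups and by neither cortex group, so neuron controls differed from cortex controls in transgene, age and culture together. Each cortex litter (litters 1 to 3) held controls and deleted foetuses. Neuron litters 4 to 6 held 1 of each, and litter 7 held a deleted sample alone, which adds nothing to a difference taken within litters.

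Libraries held 16858007 to 31157700 counted reads. Phf6 itself was at 149 to 191 CPM (counts adjusted for library size) in cortex controls and 42.4 to 55.2 CPM in deleted cortex, and at 228 to 259 CPM against 59.9 to 85.8 CPM in neurons, so every library matched its label. Tubb3 and Dcx, which mark neurons, were at 1287 CPM or above in every library. Radial glia and progenitor markers (11 genes) summed to 2718 to 3341 CPM in cortex and 685 to 1112 CPM in neurons. The deleted cortex library of litter 3 (replicate 1) stood apart, with the lowest neuron marker sum of the cortex libraries (10 genes, 5335 CPM against 6463 CPM or more in the other deleted cortices), and the cortex differences of Ldhb, Ldha, Aldoc, Pdk2 and Gapdh are also given without it. In these bulk samples, fewer cells of a type and less RNA per cell cannot be told apart.

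Glycolysis splits glucose into pyruvate. Lactate dehydrogenase then interconverts pyruvate and lactate as a tetramer of A subunits, encoded by Ldha, and B subunits, encoded by Ldhb. Tetramers rich in A are classically associated with tissues that make lactate, and tetramers rich in B with tissues that use it. In brain, glia export lactate and neurons can take it up through monocarboxylate transporters and oxidise it through the pyruvate dehydrogenase complex, which its kinases (Pdk1 to Pdk3) switch off. Several glycolytic genes, Ldha among them, are known targets of hypoxia-inducible factors, which bind at ACGTG or GCGTG cores.

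The start-site windows of both lactate dehydrogenase genes are shown because the results turn on this pair. Each runs from 250 bases before to 50 bases after the RefSeq start site on GRCm38.p6, Ldhb at chr6:142507908-142508207 on the minus strand and the upstream of 2 windows of Ldha at chr7:46845554-46845853 on the plus strand. Capitals mark ACGTG or GCGTG on either strand (read as CACGT or CACGC from the other strand), and overlapping matches merge into one run.
Ldhb: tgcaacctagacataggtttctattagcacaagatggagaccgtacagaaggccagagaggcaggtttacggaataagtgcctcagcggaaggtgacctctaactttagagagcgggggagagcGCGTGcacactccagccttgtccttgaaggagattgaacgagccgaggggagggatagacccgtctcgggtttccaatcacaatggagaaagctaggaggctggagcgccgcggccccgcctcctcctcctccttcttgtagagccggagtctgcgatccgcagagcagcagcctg
Ldha: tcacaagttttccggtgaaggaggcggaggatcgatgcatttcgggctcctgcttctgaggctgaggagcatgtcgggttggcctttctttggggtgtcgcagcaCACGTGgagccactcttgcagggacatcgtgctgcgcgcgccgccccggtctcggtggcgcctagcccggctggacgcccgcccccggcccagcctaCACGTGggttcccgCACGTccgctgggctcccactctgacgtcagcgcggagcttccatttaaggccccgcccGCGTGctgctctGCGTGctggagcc
The Ldha window held 5 ACGTG matches, 4 of them as the 2 strands of a CACGTG palindrome at -145 and -48 from the start site, and 2 GCGTG matches. The Ldhb window held no ACGTG and a single GCGTG at -126. The other Ldha window, not printed, held 0 ACGTG and 2 GCGTG matches. Across genes, 30 of the 32 members had 47 windows in the RefSeq set, and Slc2a3 and Slc16a7 had none. ACGTG was in 46.8% of member windows and in 19.6% of all 32851, and GCGTG in 57.4% against 32.4%. Member windows also had the higher median GC content, 62.0% against 52.7%. These letter matches are a description, and binding was not measured.

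The first question was whether loss of Phf6 altered these genes in the cortex. Ldhb (gene 16832, chr6:142490249-142507957) was the one member that fell by edgeR's test. It was at 99.4, 101 and 98.0 CPM in the control cortices and at 77.0, 70.9, 74.7, 72.0 and 71.0 CPM in the Phf6-/Y cortices. All deleted libraries lay below all controls, and the spread within each group was narrow beside the gap between them. Within litters, edgeR's quasi-likelihood test gave a log2 fold change of -0.44 (SE 0.06, FDR = 0.0110), a drop of 26.4%. The drop was 27.0% in litter 1, 27.8% in litter 2 and 22.6% in litter 3, so each litter showed it at a similar size. Of all 14750 genes tested in the cortex, 0.386% passed an FDR of 0.05 (0.0678% as lower), against 1 of the 32 members. Without the deleted library of litter 3, the Ldhb difference was -0.46 (FDR = 0.0341), whereas without control 2, control 3 or deleted 2 the FDR was 0.166, 0.0955 and 0.0839, with the difference at -0.41, -0.44 and -0.42. DESeq2 called Aldoc and Pkm as lower beside Ldhb, and it called 199 of all 14750 genes, 43 of them lower.

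**Figure D1:**
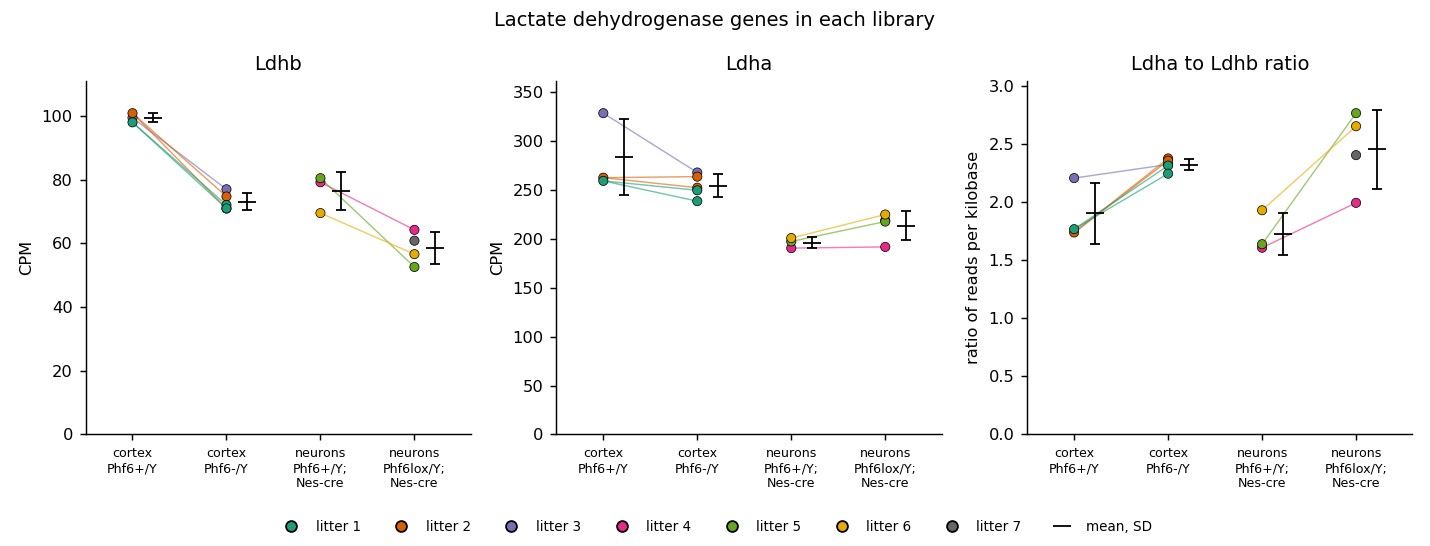
Ldhb and Ldha in CPM and the ratio of Ldha to Ldhb reads per kilobase in each of the 15 libraries (points, coloured by litter, with lines joining litter mates; bars are group mean and SD). Deleted libraries sit below all controls for Ldhb and above all controls for the ratio in both tissues, while the Ldha groups overlap.

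Cultured neurons showed a similar Ldhb difference that did not pass the threshold. Controls held 79.2, 80.5 and 69.5 CPM, and Phf6lox/Y;Nes-creTg/+ neurons held 60.8, 64.2, 52.6 and 56.6 CPM. Again the groups did not overlap, with the highest deleted library 64.2 CPM and the lowest control 69.5 CPM. The log2 difference was -0.40 (SE 0.08, FDR = 0.0518), or 24.3% lower, and within litters it was 18.9% lower in litter 4, 34.7% lower in litter 5 and 18.6% lower in litter 6. No member passed in neurons with edgeR (0 of 32, where 0.273% of 13909 genes passed), 3 were lower at an unadjusted p below 0.05 (4.46% of all genes were), and both DESeq2 and limma-trend called Ldhb alone (FDR = 0.0272 and 0.0489). Over all 13909 genes, DESeq2 called 62 (15 lower) and limma-trend 42 (12 lower). Leaving out litter 5's control or deleted library took the Ldhb difference to -0.30, with an FDR of 0.557 and 0.464. The genotype difference in neurons minus that in cortex was 0.04 on the log2 scale (SE 0.10, FDR = 0.982), and no member passed this test of the interaction with edgeR, DESeq2 or limma-trend (0 of 32 against 0.0133% of 15001 genes; 2 members, Ldha and Gapdh, at an unadjusted p below 0.05, against 5.19% of all genes).

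Markers of radial glia, neurons, vessels, meninges, microglia and red cells were compared between genotypes as well. The summed level of radial glia and progenitor markers was 2946 to 3100 CPM in control cortex against 2718 to 3341 CPM in deleted cortex, and 760 to 1112 CPM in control neurons against 685 to 1016 CPM in deleted neurons. None of the 11 passed an FDR of 0.05 by edgeR, DESeq2 or limma-trend in either tissue, and 4 of 11 (Fabp7, Nes, Eomes and Mki67) were lower in deleted neurons at an unadjusted p below 0.05, against 4.46% of all genes, where Nes reached -0.29 (FDR = 0.0893). The sum was lower in the deleted library of each neuron litter, 1016 against 1112 CPM in litter 4, 685 against 760 CPM in litter 5 and 708 against 789 CPM in litter 6. In the cortex Vim was lower and Mki67 higher at such a p. Among the 10 neuron markers, 2 were lower in deleted cortex at an unadjusted p below 0.05, Neurod6 among them, against 4.77% of all genes. In deleted neurons 2 of 10, Rbfox3 and Snap25, were higher at such a p, where 5.87% of all genes were. None of the 10 passed an FDR of 0.05 by edgeR in either tissue. Their sums overlapped, at 6513 to 7127 CPM against 5335 to 7372 CPM in cortex and 10594 to 11695 CPM against 11131 to 11682 CPM in neurons. Endothelial and mural markers summed to 238 to 284 CPM in control and 208 to 428 CPM in deleted cortex. In neurons their sum was 6.64 to 8.55 CPM in controls and 8.84 to 12.5 CPM in deleted samples, low in all but without overlap. Of all genes taken singly, 3.61% lay wholly higher in deleted neurons. Meningeal fibroblast markers (6 genes) were uneven between cortex libraries, at 18.4 to 277 CPM in controls and 16.6 to 535 CPM in deleted samples. All 6 had a positive difference in the cortex and 0 were called. Microglia and macrophage markers summed to 39.0 to 73.4 CPM in control and 35.9 to 96.0 CPM in deleted cortex. Erythroid markers summed to 265 to 402 CPM against 179 to 471 CPM. The part of these cells in the Ldhb difference was not tested.

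Ldha (gene 16828, chr7:46842274-46855627) did not change by the test in either tissue. Control cortices held 329, 263 and 259 CPM and deleted cortices 268, 252, 264, 249.7 and 239 CPM, a log2 difference of -0.13 (SE 0.07, FDR = 0.542) that was -0.06 without the deleted or the control library of litter 3. Control neurons held 191, 197 and 201 CPM and deleted neurons 219, 192, 218 and 225 CPM, a difference of 0.10 (SE 0.06, FDR = 0.574). The ranges overlapped in both tissues, and the high control cortex was that of litter 3, where the log2 difference within the litter was -0.29 against -0.09 and -0.03 in litters 1 and 2. The neuron minus cortex difference of Ldha was 0.23 (SE 0.09), which did not pass over all genes (FDR = 0.937).

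The balance of A to B transcripts was taken within each library as the ratio of reads per kilobase. It was 2.21, 1.74 and 1.77 in control cortex and 2.33, 2.38, 2.36, 2.32 and 2.25 in deleted cortex, and no deleted library overlapped the controls. The litters were uneven. In litter 3, where Ldha was lower as well (-0.29), the ratio was 2.21 in the control and 2.33 in the deleted library. It was 1.77 against 2.32 and 2.25 in litter 1, and 1.74 against 2.38 and 2.36 in litter 2. In neurons it was 1.61, 1.64 and 1.93 in controls and 2.41, 2.00, 2.77 and 2.66 in deleted samples, again without overlap. As a share of both transcripts per kilobase, Ldhb made up 34.6% ± 2.97 (SD, n = 3) in control cortex, 30.1% ± 0.459 (n = 5) in deleted cortex, 36.8% ± 2.32 (n = 3) in control neurons and 29.2% ± 3.06 (n = 4) in deleted neurons. The log2 ratio was higher by 0.32 (SE 0.08) in deleted cortex and by 0.51 (SE 0.13) in deleted neurons. A two-sided exact permutation test within litters gave p = 0.111 and 0.25, each the smallest value its 18 or 8 arrangements allow, so neither could reach 0.05 in this design. With samples permuted across litters, the exact permutation p was 0.0357 in cortex and 0.0571 in neurons, again the smallest possible.

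In the cortex, 4 other members had an unadjusted p below 0.05 with an FDR above it (with Ldhb, 4 of 32 members were lower at such a p, against 4.77% of all genes, and 1 higher, against 5.69%). Aldoc (gene 11676, chr11:78323073-78327781), the brain-type aldolase that is abundant in glia, was at 164, 146 and 152 CPM in control cortex and 87.8, 118, 132, 112 and 116 CPM in deleted cortex. These groups did not overlap, and the lowest value was the deleted library of litter 3. The log2 difference was -0.48 (SE 0.10, FDR = 0.0842) and -0.32 without that library (FDR = 0.224), a value that also arose without the litter's control, and DESeq2 called it (FDR = 0.000785). Aldoc in neurons was at 56.0, 39.1 and 40.2 CPM in controls and 48.1, 35.0, 39.7 and 35.1 CPM in deleted samples, with a difference of -0.30 (SE 0.11, FDR = 0.369) that was -0.09 without either library of litter 4. Aldoc and Ldhb were the 2 members, both lower, without overlap between cortex groups, where 2.56% of all genes lay wholly lower.

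Pkm, the pyruvate kinase that makes ATP and pyruvate in the last step, was at 962, 822 and 772 CPM in control cortex and 813, 665, 744, 679 and 639 CPM in deleted cortex. The groups overlapped because litter 3 was high in both genotypes, yet within litters 1, 2 and 3 the log2 difference was close, at -0.23, -0.22 and -0.24 (-0.24 in the fit, SE 0.06, FDR = 0.161). DESeq2 called it (FDR = 0.0258). In neurons Pkm was at 584, 594 and 530 CPM in controls and 598, 511, 551 and 522 CPM in deleted samples, ranges that overlapped (-0.11, FDR = 0.524). Tpi1, the triose phosphate isomerase, was at 257, 201 and 199 CPM in control cortex and 221, 182, 197, 181 and 159 CPM in deleted cortex. These ranges overlapped, and the difference was -0.18 (SE 0.07, FDR = 0.349). In neurons Tpi1 was at 143, 162 and 156 CPM against 141, 133, 149 and 146 CPM, overlapping as well (-0.11, FDR = 0.550).

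Slc16a3, which encodes the lactate exporter MCT4, was the one of these with the higher level in deleted cortex. It was at 7.29, 3.92 and 3.02 CPM in control cortex and 9.78, 6.70, 5.63, 5.75 and 3.47 CPM in deleted cortex. The ranges overlapped, litter 3 being high in both genotypes, and the difference was 0.57 (SE 0.21, FDR = 0.331). In neurons it was near the lower limit of measurement, 0.660, 0.692 and 0.482 CPM in controls and 1.33, 0.515, 1.65 and 0.625 CPM in deleted samples (0.45, SE 0.53, FDR = 0.844), and the sign turned on leaving out either library of litter 5. Pdk2, a kinase that inhibits pyruvate dehydrogenase, was at 18.3, 17.5 and 15.1 CPM in control neurons and 15.1, 11.6, 13.4 and 14.2 CPM in deleted neurons. The groups just failed to overlap, with the highest deleted library and the lowest control both near 15.1 CPM, and the difference was -0.38 (SE 0.14, FDR = 0.330). Within litters 4, 5 and 6 it was -0.65, -0.38 and -0.08, and it spanned -0.53 to -0.23 on leaving out 1 library. In the cortex Pdk2 overlapped, at 36.0, 29.0 and 32.3 CPM against 27.5, 26.1, 32.4, 29.8 and 23.7 CPM (-0.21, FDR = 0.560), and the difference was -0.13 without the deleted library of litter 3.

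**Figure D2:**
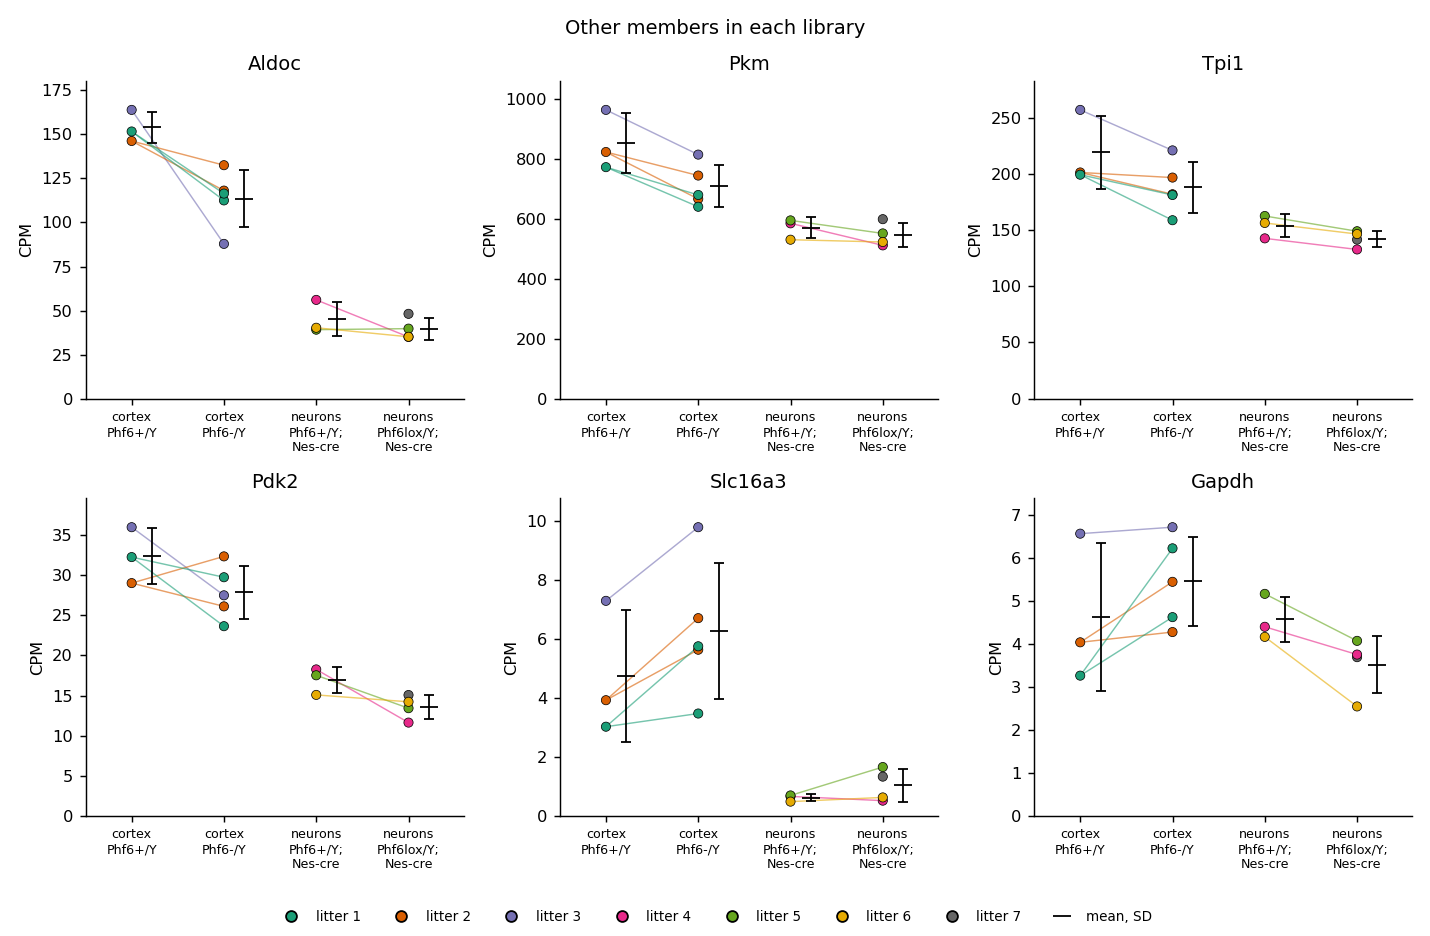
CPM of 6 other members in each library (points, coloured by litter, with lines joining litter mates; bars are group mean and SD). In cortex, litter 3 is the highest of both genotypes for Pkm, Tpi1, Slc16a3 and Gapdh, and most litter lines for Aldoc, Pkm and Tpi1 run downward from control to deleted.

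The remaining 25 members had genotype differences between -0.21 and 0.39 in the cortex, with FDR of 0.542 or above, and between -0.42 and 0.15 in neurons, with FDR of 0.507 or above. All 32 passed the filter on low counts in every fit. Over all members the median log2 difference was -0.04 in the cortex and -0.08 in neurons, with 21 of 32 negative in each, beside medians of -0.002 and 0.001 over all genes tested. Apart from Ldhb and Pdk2, deleted and control neurons did not overlap for Gapdh (lower) and Aldoa (higher), so 3 of 32 members lay wholly lower and 1 wholly higher, where 3.62% and 3.61% of all genes did. Aldoa was at 165, 168 and 153 CPM in control neurons and 196, 169.8, 173 and 184 CPM in deleted neurons (0.12, SE 0.06, FDR = 0.542). Within litters 4, 5 and 6 the difference was 0.04, 0.05 and 0.27, and without the deleted library of litter 6 it was 0.04.

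**Figure D3:**
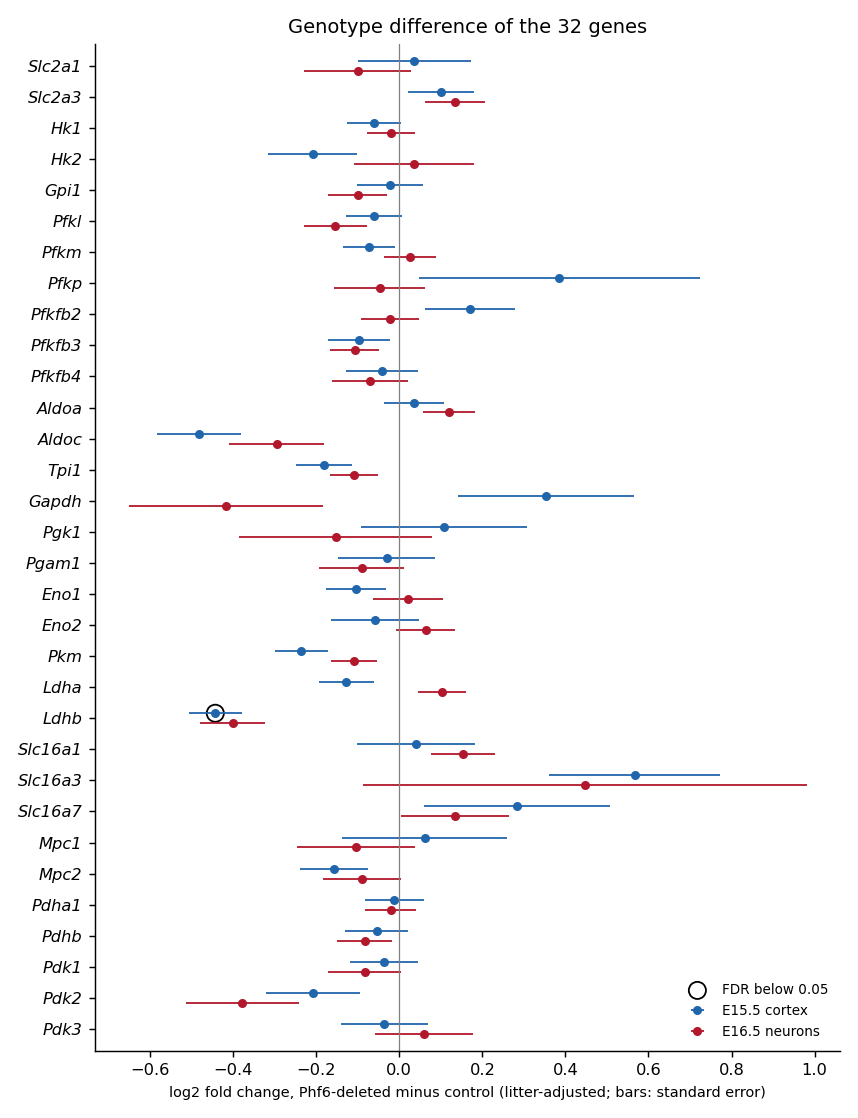
Log2 difference of the 32 genes, Phf6-deleted minus control within litters, in E15.5 cortex (blue) and E16.5 neurons (red), with bars of 1 standard error. The circled point, Ldhb in the cortex at -0.44, is the only one with an FDR below 0.05, and the neuron point lies beside it at -0.40.

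Cortex members also differed between litters. The libraries of litter 3 were the highest of both genotypes for 9 members (Gpi1, Pfkl, Aldoa, Tpi1, Gapdh, Eno1, Pkm, Ldha and Slc16a3) and the lowest of both for 5 (Hk1, Pfkfb3, Pfkfb4, Mpc1 and Mpc2). Litter 2 was the highest of both for 5 members, and litter 1 the lowest of both for 3. Ldhb was in none of these sets. The same counts were not made over all genes, so they only describe the members. Litter 3 held 1 library of each genotype. With the litter term left out, no member passed in the cortex by edgeR, and Ldhb was at -0.45 with an FDR of 0.0693.

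Some members may not have been counted cleanly, as stretches of 80 bases of their transcripts occur in other annotated genes. Such stretches made up 55.0% of Gapdh, shared with 111 other genes, 103 of them pseudogenes, and 67.4% of Pgk1, 43.3% of Eno1 and 40.4% of Pgam1. Gapdh, the glyceraldehyde phosphate dehydrogenase that is often used as a reference for its abundance, was at only 2.55 to 6.72 CPM over the 15 libraries, with 1728 reads in all against 26906 under 9 of those other genes. Pgk1 was similarly low at 3.35 to 6.23 CPM. Levels and differences of these 4 genes are therefore uncertain, and so is the absence of a call for Gapdh at 0.35 (SE 0.21; 0.49 without the deleted library of litter 3) in cortex and -0.42 (SE 0.23) in neurons. The share was 11.3% for Ldhb, with 1 pseudogene, 2.42% for Ldha and 12.3% for Pkm, while Aldoc, Slc16a3 and Pdk2 had none. Between 12.6% and 23.3% of Pfkfb2, Mpc1, Pdhb, Pfkp, Pdha1 and Gpi1 was shared as well. Slc2a1, Hk1 and Pfkm overlap antisense genes, whose reads cannot be told apart without the strand setting. The part of shared stretches in the results was not tested.

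Neighbouring pathways showed no called gene in either genotype comparison with edgeR. The pentose phosphate pathway (7 genes), which branches from glucose 6-phosphate, had 0 called and 4 lower at an unadjusted p below 0.05 in the cortex (G6pdx, Pgd, Tkt and Taldo1, between -0.21 and -0.16), against 4.77% of all genes. It had none at that level in neurons. Of 16 tested HIF pathway regulators and other hypoxia-inducible genes, 0 were called with edgeR or limma-trend in the cortex, while DESeq2 called Ndrg1 (-0.45 by edgeR, FDR = 0.149) and Ddit4 (-0.31, FDR = 0.140). DESeq2 called 199 of all 14750 genes there, 43 of them lower. At an unadjusted p below 0.05, 2 of the 16 genes of this list were lower in the cortex, against 4.77% of all genes. In neurons 1 of 15, Epas1, was higher at such a p, against 5.87% of all genes. The 9 NADH shuttle genes, which carry reducing power into mitochondria, held Slc25a13 at -0.32 (FDR = 0.329) in cortex and -1.11 (SE 0.23, FDR = 0.0709) in neurons. With Slc25a12, 2 of the 9 were lower in cortex at an unadjusted p below 0.05, against 4.77% of all genes. In neurons 1 of the 9 was lower at such a p, against 4.46% of all genes. The tricarboxylic acid cycle (16 genes) and the other pyruvate dehydrogenase complex genes (7) had 0 at that level in both tissues. Apart from the 2 DESeq2 calls, DESeq2 and limma-trend also called 0 in these lists, and the single genes named here were picked after their values were seen.

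The second question was how the members differed between the tissue and the cultured neurons in controls. Here 23 of 32 members passed the test, 10 higher and 13 lower in neurons, while 51.1% of 14320 genes passed (24.7% higher and 26.4% lower). Tissue, age, culture, Nes-cre and litter differed together, so their parts in these differences cannot be told apart. Endothelial and mural markers (10 genes) summed to 238 to 284 CPM in control cortex and 6.64 to 8.55 CPM in control neurons, where Cldn5 was at 0 and Pecam1 at 0.833 to 1.52 CPM. Microglia and macrophage markers (8 genes) went from 39.0 to 73.4 CPM in cortex to 20.9 to 25.1 CPM in neurons. Erythroid markers (7 of 8 in the table) went from 265 to 402 CPM to 13.5 to 32.3 CPM. Neuron markers went from 6513 to 7127 CPM in cortex to 10594 to 11695 CPM, with 8 of 10 called higher and 1 called lower (-0.47). All 11 radial glia and progenitor markers fell. The part of these cells in the differences below was not tested. Scaling by library totals moved the median of all genes from -0.03 to -0.17 and the split of calls over all genes from 3541 higher and 3777 lower to 2459 and 5003. Members then split into 8 higher and 16 lower, Mpc2 and Pdha1 losing their calls and Aldoa, Pgam1 and Pdk1 gaining one as lower.

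Glucose transport switched in order. Slc2a1, which encodes GLUT1 of vessels and glia, was at 70.3, 55.4 and 61.8 CPM in control cortex and 12.2, 15.1 and 15.2 CPM in control neurons, a log2 difference of -2.15 (SE 0.13, FDR = 7.14e-08). Slc2a3, which encodes the neuronal GLUT3, was at 37.5, 43.4 and 41.7 CPM in cortex and 53.9, 59.4 and 64.7 CPM in neurons (0.53, SE 0.10). Neither pair of ranges overlapped. Per kilobase, Slc2a1 therefore made up 70.0% ± 4.03 (SD, n = 3) of the 2 transporters in cortex and 26.8% ± 1.22 (n = 3) in neurons.

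Lactate transporters moved in different directions. Slc16a3 fell by 2.95 on the log2 scale (SE 0.41, FDR = 5.1e-05), from a low level in cortex to below 1 CPM. Slc16a7, which encodes the high-affinity neuronal transporter MCT2, rose from 3.38, 3.52 and 4.51 CPM to 19.2, 21.2 and 32.5 CPM, a 6.38-fold difference (log2 2.67, SE 0.22, FDR = 1.23e-06). Slc16a1, which encodes MCT1, rose by 0.57 (SE 0.11). As shares of the 3 transporters per kilobase, Slc16a7 went from 15.2% ± 2.80 to 47.7% ± 6.61, Slc16a3 from 17.4% ± 6.72 to 1.18% ± 0.352, and Slc16a1 from 67.5% ± 4.11 to 51.1% ± 6.26 (SD, n = 3 each).

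**Figure D4:**
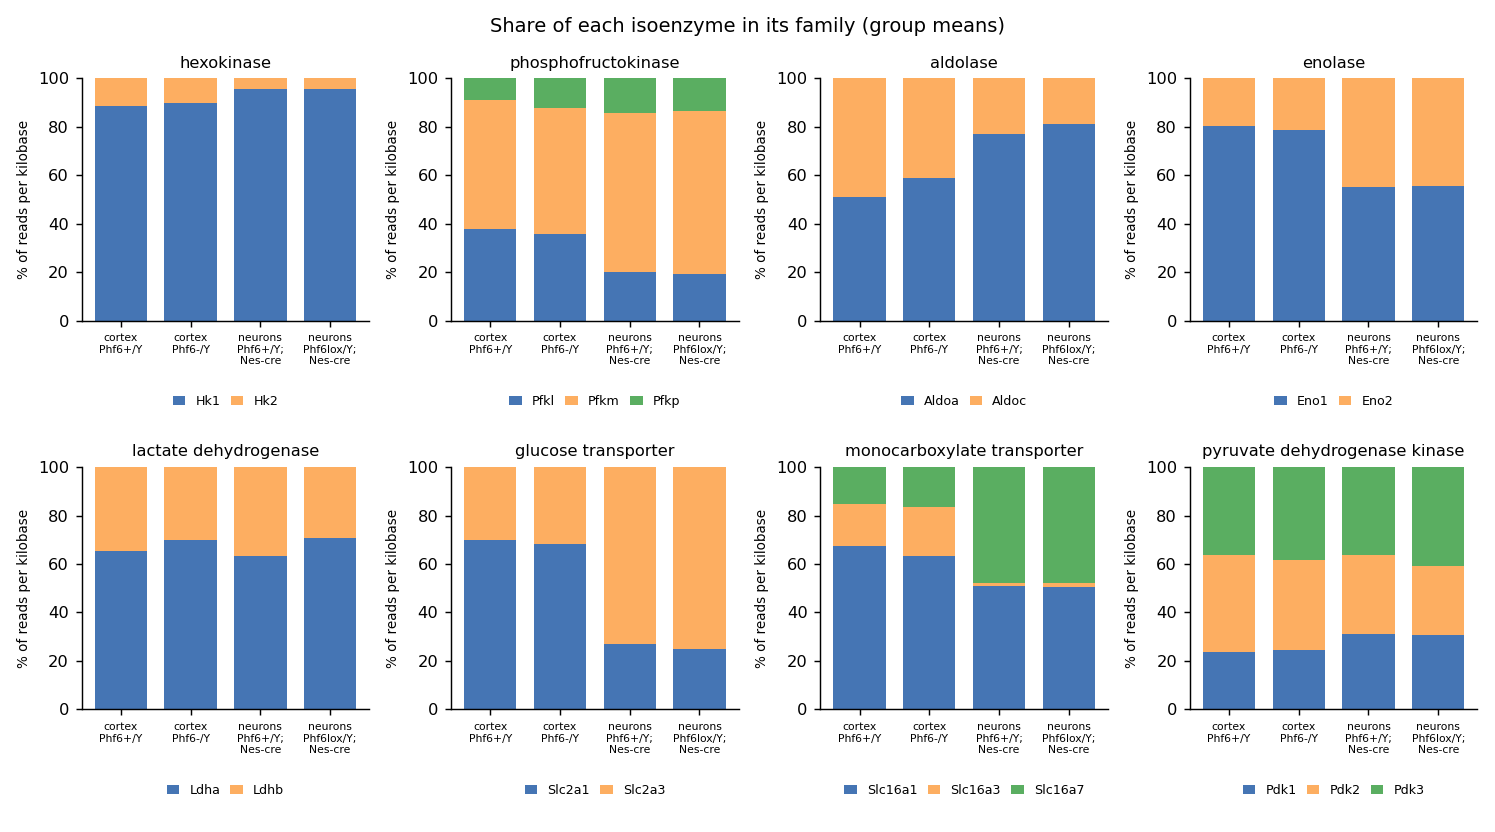
Share of each isoenzyme or transporter in its family, in percent of reads per kilobase, as group means in the 4 groups (stacked bars from 0 to 100). Families differ most between cortex and neurons, as for Slc2a1 against Slc2a3 (70.0% and 26.8% Slc2a1 in controls), while the Ldhb share is lower in deleted than control samples in both.

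Along the pathway, isoenzyme pairs also shifted in controls. Hk2 fell by 1.11 (SE 0.15) and Hk1, the main brain hexokinase, rose by 0.40 (SE 0.09), leaving Hk1 at 95.7% of the pair per kilobase in neurons against 88.6% in cortex. Pfkl, the liver-type phosphofructokinase, fell by 1.12 (SE 0.10) while Pfkm at 0.10 (SE 0.09) and Pfkp at 0.45 (SE 0.32) did not pass. Of the 3 PFKFB genes, whose products set the level of an activator of phosphofructokinase, Pfkfb2 rose by 0.63 and Pfkfb3 by 0.70. Pfkfb4 had a difference of 0.26 (FDR = 0.0603). Aldoc fell by 1.77 on the log2 scale (SE 0.13, FDR = 7.6e-07), from 146 to 164 CPM down to 39.1 to 56.0 CPM, and its share of aldolase reads per kilobase went from 48.9% ± 1.26 to 22.9% ± 3.43 (SD, n = 3), while Aldoa at -0.10 (SE 0.09) did not pass.

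Eno1 fell by 1.06 (SE 0.13), with the reservation on shared stretches above, and Eno2, the neuron-enriched enolase, rose by 0.69 (SE 0.12), which took Eno2 from 19.5% to 44.8% of the pair per kilobase. Pkm fell by 0.59, Tpi1 by 0.51, Gpi1 by 0.45, Ldha by 0.53 and Ldhb by 0.38. Because both lactate dehydrogenase genes were lower, their log2 ratio differed by -0.14 (SE 0.14) between control sets (-0.03 without control cortex 1 and -0.22 without control neurons 3), an exact two-sided permutation p of 0.5 where 0.1 is the smallest possible for 3 against 3. Among genes of pyruvate entry and oxidation, Mpc1 and Mpc2, the 2 subunits of the mitochondrial pyruvate carrier, rose by 0.56 and 0.40, and Pdha1 by 0.34. Mpc1 shares 19.1% of its stretches with other genes, and without control cortex 1 its FDR was 0.0504. Pdk2 fell by 0.94 and Pdk3 by 0.66, both inhibitory kinases, whereas Pdk1 at -0.27 (FDR = 0.0984) and Pdhb at 0.12 did not pass. The others that did not pass were Gapdh, Pgk1 and Pgam1, with differences between -0.31 and -0.02. Pgam1 was called as lower in 4 of 12 alternatives, among them those without control cortex 2 and without control neurons 1. Gapdh turned its sign in 5 of 12, with a span of -0.22 to 0.32. Without control cortex 2, Pfkp was at 0.78 with an FDR of 0.0256.

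**Figure D5:**
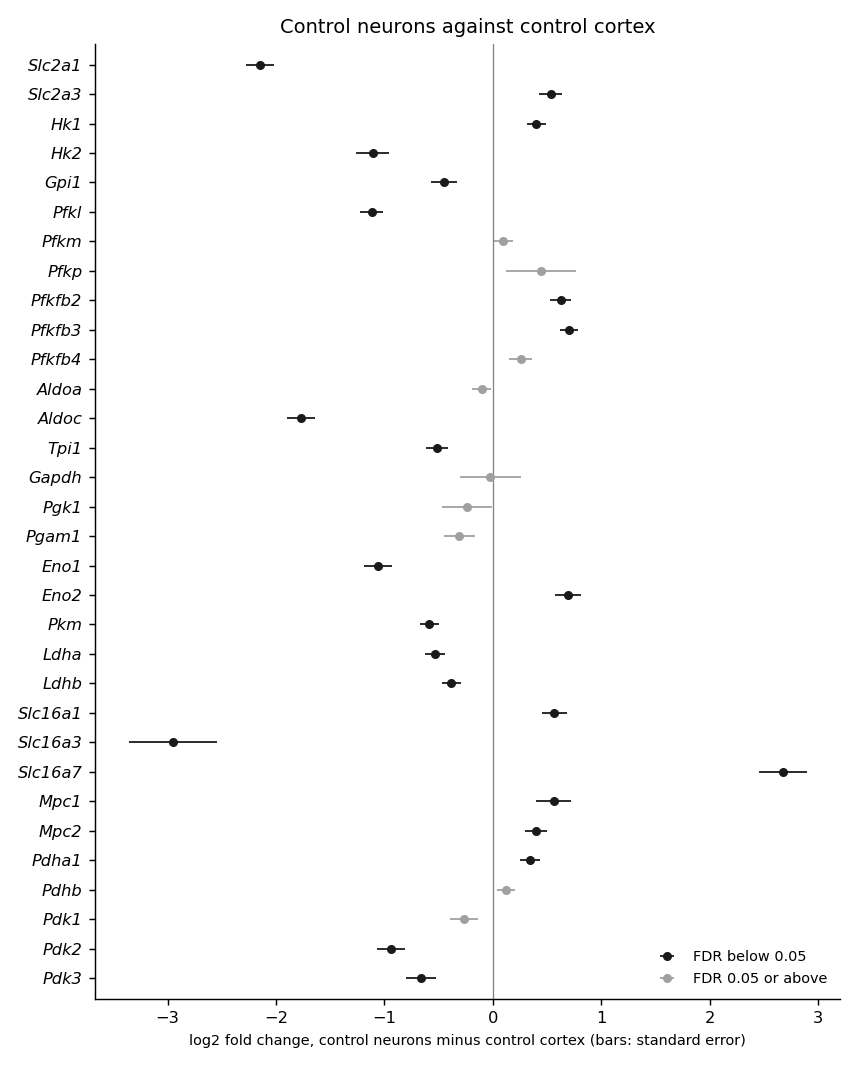
Log2 difference of the 32 genes, control neurons minus control cortex (3 libraries each), with bars of 1 standard error, black where the FDR was below 0.05. The range runs from -2.95 for Slc16a3 to 2.67 for Slc16a7, with 10 genes called higher and 13 lower.

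Per kilobase, Pkm was the most abundant member in each group, at 328 ± 38.1 RPKM (reads per kilobase of gene length on the CPM scale; SD, n = 3) in control cortex, 272 ± 27.0 (n = 5) in deleted cortex, 219 ± 13.4 (n = 3) in control neurons and 209.8 ± 15.0 (n = 4) in deleted neurons. Ldha followed in control cortex at 147 ± 20.3 RPKM and Tpi1 at 137 ± 20.4 RPKM, neighbours that did not differ beyond their spread. Ldhb was at 77.1 ± 1.12 RPKM in control cortex, 56.7 ± 2.05 in deleted cortex, 59.2 ± 4.64 in control neurons and 45.4 ± 3.93 in deleted neurons. Together the 32 genes took 0.287% to 0.371% of counted reads in cortex libraries and 0.235% to 0.267% in neuron libraries. This order and these totals are of reads as counted. The levels of Gapdh, Pgk1, Eno1 and Pgam1 are uncertain, with the reservation on shared stretches above, and so are their places in the order.

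The counts in the neighbouring lists stand beside 51.1% of all genes called in the same tissue comparison, 24.7% higher and 26.4% lower. This comparison called 9 of 15 tested HIF pathway and hypoxia-inducible genes, 4 higher and 5 lower. Epas1 at -5.36 and Ankrd37 at -2.33 were the strongest lower calls, and Ndrg1 (0.97) and Hif1a (0.43) the strongest higher ones. The comparison called 4 of 16 tricarboxylic acid cycle genes higher, Idh3a (0.64) first, and Suclg2 (-1.70) lower. Pentose phosphate genes had 3 of 7 higher, Tkt (0.41) first, and Pgd (-0.63) lower. Of the other pyruvate dehydrogenase genes, 3 of 7 were higher, Dld (0.41) first, and Pdk4 (-1.60) and Pcx were lower. The NADH shuttles had Gpd1l (0.85) and Gpd2 (0.73) higher and Slc25a13 (-1.42) lower of 9.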

How the data were processed

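Total RNA was sequenced as stranded paired-end libraries, and per the labels and the study's methods the reads were aligned to mm10 with Rsubread and assigned to genes with featureCounts and its inbuilt RefSeq annotation. The strand setting is not given in the sources used here. The deposited values are raw read counts per gene from the authors, with a gene length. Entries without a gene identifier (1029 of 27179, 0.349% to 0.605% of counts), unmatched entries (875), pseudogenes (835), rRNA genes (35) and predicted genes (1273) were left out before testing.

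Each tissue was fitted in edgeR 4.0.16 (R 4.3.3) with filterByExpr, TMM scaling and the robust quasi-likelihood F test with a litter term, and p-values were adjusted over all genes tested by the Benjamini-Hochberg method and called at an FDR of 0.05. All differences without another test named come from these fits, and an FDR is that adjusted p. DESeq2 1.42.0 and limma 3.58.1 (limma-trend) were alternatives, and the code was tested on simulated data. Control neurons and control cortex were compared without a block. CPM and RPKM levels use TMM over all 15 libraries. Litter from the labels pairs the samples: deviations from the group mean correlated at -0.12 to 0.48 within cortex litters and 0.14 to 0.31 within neuron litters, against -0.44 to 0.13 and -0.30 to 0.26 between litters. Pairs of replicates differed beyond sampling noise, so none was a duplicate. Each p-value sets a difference against the spread between these samples.

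The 32 members and the other gene lists were chosen with earlier results of these data known. Values per library are given for Ldha, Ldhb and each member with an unadjusted p below 0.05 in a genotype comparison, and for further members picked after their values were seen. Start-site windows are from RefSeq (GRCm38.p6), and shared stretches were counted in GENCODE transcripts. Lists of other glycolytic isoenzymes and other transporters were tested and are not reported here.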

Additional observations from a re-analysis of the deposited data

Results flagged for a closer look

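In sets of 4 or 5 libraries, 2 of 66 sets of values (each of the 32 genes and the Ldha to Ldhb balance, in both deleted groups) held a library far from the others by Dixon's criterion, where chance marks about 1 in 20. Pfkfb3 was at 75.9 CPM in the deleted cortex library of litter 3, below the next at 97.1 CPM. Pdk3 was at 29.1 CPM in deleted cortex replicate 5, above the next at 25.1 CPM.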

How the results depend on the processing

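The count of called members in the cortex was 3 with DESeq2 (Ldhb, Aldoc and Pkm, all lower), 0 without the replicate block (litter term left out), and 0 to 1 on leaving out each library in turn. In neurons it was 1, Ldhb lower, with DESeq2, limma-trend, library totals, RLE size factors and no filter on low counts, 0 without the litter block, and 0 to 1 on leaving out each library. Ldhb kept its sign under all 14 cortex alternatives (-0.47 to -0.41, called in 10) and all 13 in neurons (-0.46 to -0.30, called in 10). The cortex balance difference without the replicate block was 0.30, an exact permutation p of 0.0357, and it was 0.24 to 0.41 on leaving out a library. The tissue count stayed at 22 to 25. There the replicate numbers do not pair the samples (same-number correlations 0.05 to 0.12; 4 of 6 samples were closest to their own number), and a replicate block gave 24 members. The interaction difference of Slc16a3 turned to 0.31 without the litter block, and spanned -0.59 to 0.30 on leaving out a library. That of Ldhb spanned -0.017 to 0.14, negative without each of 4 neuron libraries, and the neuron difference of Slc16a3 spanned -0.025 to 0.86, negative without either library of litter 5. Over all genes, calls in the cortex went from 57 to 199 with DESeq2, 114 with no filter and 1 without the litter block, in neurons from 38 to 62, 297 and 1, with 73 under library totals, and in the interaction from 2 to 12, 5 and 0. On leaving out each library they ranged from 7 to 81 in the cortex (7 without control 2, 10 without control 1 or deleted 2, 81 without deleted 5), from 16 to 494 in neurons (494 without control 3, 383 without deleted 4, 16 without control 2) and from 0 to 4 in the interaction. The causes were not tested. Slc16a3 in neurons, at 0.482 to 1.65 CPM, rests on few reads.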
